A study of Mus musculus with 6 samples.

Results

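The 36 genes described here encode enzymes of purine, pyrimidine and deoxyribonucleotide supply. Most make or salvage nucleotides, Shmt1, Mthfd1 and Mthfd1l supply one-carbon units, and Samhd1 breaks deoxyribonucleotides down. The genes were compared between MOC2 cells labelled control CRISPR and MOC2 cells labelled EphA4 knockout. They are the rows of the deposited count table whose gene symbol equals a name on a list of enzymes, and all 36 were found among 55418 symbols. MOC2 is a mouse oral squamous carcinoma line that is negative for papillomavirus, and RNA was sequenced from 3 control and 3 knockout-labelled samples. The control cells carry a control CRISPR edit, the cells labelled EphA4 knockout are 1 clone named H3, and neither group was treated. Both groups were grown in the same medium with serum, EGF, hydrocortisone and insulin and were passaged 2 times after thawing. The Epha4 transcript was higher, not lower, in the libraries with the knockout label. Because that label stands for a single clone, a difference between clones and an effect of the edit cannot be told apart. Nothing in the labels says whether the samples of a group were separate cultures, so the tests below rest on a spread that may be technical.

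Cells build purine nucleotides stepwise on phosphoribosyl pyrophosphate (PRPP), an activated sugar made by the PRPS enzymes, until inosine monophosphate (IMP) is reached, from which GMP and AMP branch off. Pyrimidines are built as a ring first and joined to PRPP afterwards, which gives UMP and then CTP. Salvage enzymes recover free bases and nucleosides. Ribonucleotide reductase turns ribonucleotides into the deoxyribonucleotides (dNTPs) that DNA replication uses, and folate enzymes supply one-carbon units to purines and to thymidylate. Dividing carcinoma cells are known to depend on these routes, and the transcription factors MYC and E2F are known to drive many of the genes.

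Upstream sequence is shown for 4 genes, Cad and Rrm2 because they rose the most, and Tyms and Dtymk because they rose together and each holds an E-box. An E-box, CACGTG, is a word bound by MYC and related factors. The sequences come from RefSeq on build GRCm38.p6, which is not the build named for the authors' alignment, and run 5′ to 3′ on the gene's strand and lie before the transcription start, trimmed where GENCODE M21 annotates an exon, so that the Cad stretch begins at position -156 and the Rrm2 stretch ends at position -14. Capitals mark CACGTG; positions are counted back from the transcription start.
Tyms, at chr5:30073626-30073875 on the minus strand: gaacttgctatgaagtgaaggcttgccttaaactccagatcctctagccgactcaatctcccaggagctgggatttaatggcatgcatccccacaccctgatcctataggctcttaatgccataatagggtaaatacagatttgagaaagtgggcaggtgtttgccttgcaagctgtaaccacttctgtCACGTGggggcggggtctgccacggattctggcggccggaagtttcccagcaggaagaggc
Dtymk, at chr1:93801935-93802184 on the minus strand: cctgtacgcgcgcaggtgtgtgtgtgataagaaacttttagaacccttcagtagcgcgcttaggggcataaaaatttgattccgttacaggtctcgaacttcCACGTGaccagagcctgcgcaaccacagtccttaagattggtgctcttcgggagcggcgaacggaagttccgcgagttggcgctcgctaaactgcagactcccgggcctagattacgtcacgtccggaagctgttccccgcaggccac
Cad, at chr5:31054624-31054779 on the plus strand: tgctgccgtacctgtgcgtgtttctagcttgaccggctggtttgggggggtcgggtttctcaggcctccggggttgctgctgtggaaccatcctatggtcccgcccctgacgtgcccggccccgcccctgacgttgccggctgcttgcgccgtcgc
Rrm2, at chr12:24708004-24708240 on the plus strand: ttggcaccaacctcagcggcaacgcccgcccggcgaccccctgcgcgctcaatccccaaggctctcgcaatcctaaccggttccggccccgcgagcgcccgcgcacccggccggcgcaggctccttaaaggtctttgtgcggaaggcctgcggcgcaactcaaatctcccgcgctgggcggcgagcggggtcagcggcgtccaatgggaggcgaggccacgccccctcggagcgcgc
The E-box begins at position -61 in Tyms and at position -148 in Dtymk, and neither CACGTG nor an E2F-type word (TTTGGCGC, TTTCCCGC or TTTCGCGC, on either strand) is in the Cad and Rrm2 stretches shown. RefSeq windows of 300 bases, 250 before and 50 after a start, were at hand for 33 of the 36 genes, and CACGTG was in a window of 6 of them (Atic, Dtymk, Impdh2, Nme1, Paics and Tyms), or 18.2%. The share was 11.6% over the 9847 tested protein-coding genes with a window and 8.91% over all 17492 with one. An E2F-type word was in 2 of the 33 (Ppat and Prps2), or 6.06%, against 4.07% of the tested protein-coding genes. Among genes with a window, a window held CACGTG in 5 of the 25 that rose and in 1 of the 8 others. The words CACGTG and the E2F-type words do not overlap in these windows, and a match is a description of the letters only.

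Library totals ran from 35115926 to 41775031 counts, so 1 count was worth 0.0240 to 0.0283 CPM (counts scaled to library size and TMM factors). Epha4, the gene the label names, had 51.4, 59.8 and 54.0 CPM in the control libraries. In the knockout-labelled ones it had 97.4, 103 and 98.1 CPM, so its transcript was higher. Counts per gene show neither the edited sequence nor the protein, so the label could not be checked from them. Higher and lower therefore refer throughout to the libraries carrying the EphA4 knockout label. The exons of 14 of the 36 genes share bases with another gene model, and the coding sequences of 12 match a transcript of another gene, mostly pseudogenes with few counts, so their reads can be split. Knockout replicate 3 stood apart from its group, with a chi-square per degree of freedom of 30.8 and 31.7 against the other 2, where other pairs within a group had 4.41 to 8.89. Of 8 epithelial markers, Epcam, Cdh1, Krt8 and Krt18 were abundant, with Epcam lower (log2 fold change -0.61) and the other 3 higher. The basal squamous markers Krt5 and Trp63 were near 0 (at most 0.016 and 0.018 CPM as a group mean), and the basal keratins Krt14 (3.72 and 1.83 CPM in control and knockout-labelled libraries) and Krt17 (0.75 and 0.27 CPM) were low and fell. Summed over 8 fibroblast markers the level was 48.3 to 51.4 CPM in control and 1.93 to 2.03 CPM in knockout-labelled libraries. All 5 tested members were lower. Of the untested ones, Col1a2 went the other way, with 0 to 4 counts in control and 8 to 11 in knockout-labelled libraries. Thy1 had 1 to 13 counts in control and 0 in knockout-labelled libraries, and Lum had 0 in all 6. Summed over 8 leukocyte markers the level was 22.1 to 24.8 CPM in control and 11.8 to 13.4 CPM in knockout-labelled libraries. Cd3e, Itgam and Adgre1 had 0 counts in all 6 libraries, which allows up to 3 counts in each. Only Cd68 and Csf1r of these were tested, and Cd68 fell from 18.2 to 4.24 CPM while Csf1r rose from 4.72 to 7.75 CPM. The part of these markers in the results below was not tested.

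Most nucleotide synthesis transcripts were higher in the knockout-labelled libraries. Of the 36 genes, all of which passed the filter on low counts, 26 rose, 5 fell and 5 did not pass an adjusted p of 0.05 in edgeR's quasi-likelihood test. Those that fell were Ctps2, Tk1, Tk2, Aprt and Samhd1, and those that did not pass were Paics, Impdh1, Dhodh, Rrm2b and Nme2. Without knockout replicate 3, which stood apart, 27 rose and 5 fell. Over all 15199 tested genes, 32.7% were called higher and 38.8% lower, or 71.5% in either direction, while among the 36 genes 72.2% were higher and 13.9% lower. A rise of at least 1.5-fold was called for 18 of the 36 and a fall of that size for 1, against 18.8% and 27.4% of all tested genes, or 46.2% in either direction. The median log2 fold change was 0.65 over the 36 genes and -0.04 over all tested genes. For 33 of the 36 (91.7%) the control and knockout-labelled ranges were separate, against 76.1% of all tested genes. Summed over the 36 genes, the level ran from 3778 to 3965 CPM in control and from 5635 to 5737 CPM in knockout-labelled libraries, and these transcripts took 0.380% to 0.396% of the control counts and 0.562% to 0.571% of the knockout-labelled counts.

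**Figure D1:**
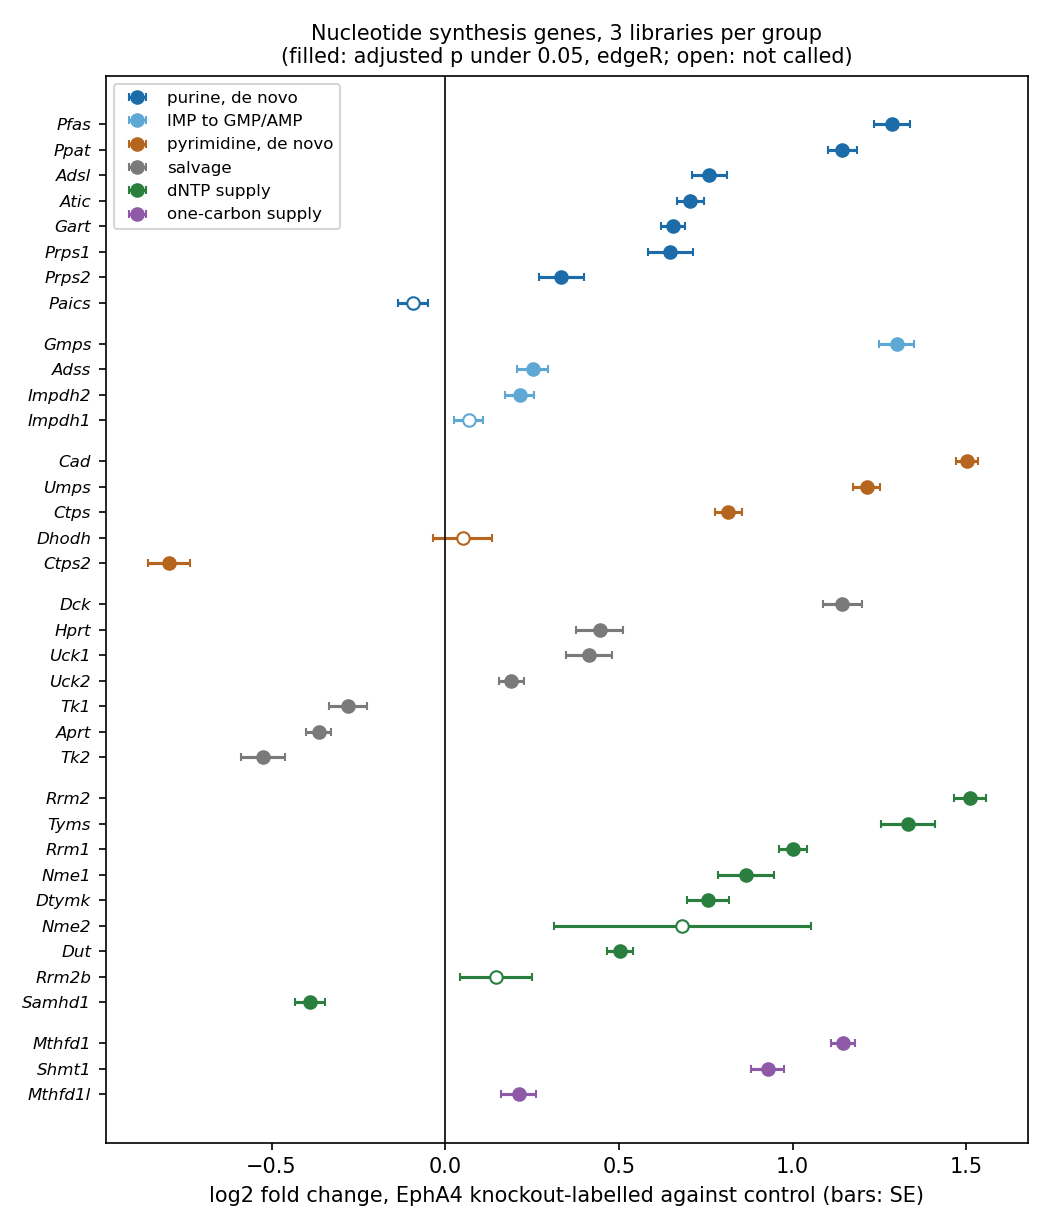
Log2 fold change of each of the 36 genes in the knockout-labelled against the control libraries (horizontal axis; bars are SE, 3 libraries per group), grouped by step and coloured by route; filled points passed an adjusted p of 0.05 in edgeR and open points did not. Most points lie right of 0, led by Rrm2 at 1.51 and followed by Cad, and Ctps2 lies farthest left at -0.80.

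Transcripts for purine synthesis up to IMP rose for 7 of 8 genes (87.5%), with a median log2 fold change of 0.68. Over all tested genes, 32.7% were called higher. Ppat encodes the amidotransferase that commits PRPP to purine synthesis. It had 55.1, 54.7 and 57.8 CPM in control and 126, 119.5 and 124 CPM in knockout-labelled libraries, a 2.21-fold rise (log2 fold change 1.14, SE 0.04, adjusted p = 5e-08). Pfas, whose product adds a further nitrogen from glutamine, had 43.2, 47.2 and 48.3 CPM in control and 110.3, 112 and 116 CPM in knockout-labelled libraries and rose the most of this group (log2 fold change 1.29, SE 0.05). In both genes every knockout-labelled library lay above every control library by a margin far larger than the spread within a group. Gart encodes an enzyme with 3 activities of the route and had 169.7, 165 and 170.3 CPM in control against 264, 258 and 272 CPM (log2 fold change 0.65, SE 0.03). Adsl, which acts both before IMP and on the way to AMP, had 71.0, 79.5 and 76.5 CPM in control and 132, 129 and 124 CPM in knockout-labelled libraries (log2 fold change 0.76, SE 0.05). Atic encodes the enzyme of the last steps to IMP. Its levels were 196, 206 and 199 CPM in control and 314, 327 and 338 CPM in knockout-labelled libraries (log2 fold change 0.71, SE 0.04), and the groups did not overlap.

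Paics was the exception among the purine steps. It encodes the enzyme of a carboxylation and a ligation in the middle of the route, and it had 399, 401 and 438 CPM in control and 393, 389 and 379 CPM in knockout-labelled libraries. Its log2 fold change of -0.09 (SE 0.04) did not pass (adjusted p = 0.084), although the ranges did not overlap and the call was made as lower with no filter on low counts (adjusted p = 0.023). Paics and Ppat are neighbours on chromosome 5 whose first exons overlap on opposite strands, with RefSeq starts 276 bases apart and 272 exonic bases in common in GENCODE M21. Ppat thus rose 2.21-fold beside a neighbour with a log2 fold change of -0.09. The Paics window holds CACGTG at position -203, and the Ppat window holds TTTCCCGC, as its reverse complement, at positions -211 and -158. Without a stated strand setting, reads in the shared stretch cannot be assigned to one of the 2 genes with certainty.

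Both PRPP synthetase genes, counted among the 8 above, rose. Prps1, which encodes a PRPP synthetase, had 50.1, 54.5 and 57.8 CPM in control and 86.3, 88.8 and 79.7 CPM in knockout-labelled libraries (log2 fold change 0.65, SE 0.06). Its relative Prps2 had 42.2, 39.3 and 44.2 CPM and 54.1, 55.1 and 49.3 CPM and rose by less (log2 fold change 0.33, SE 0.07, adjusted p = 0.0015). The gene Prps1l3, a close copy whose transcript matches the Prps1 coding sequence at 97.0% over 953 bases, rose too, from 17.5 ± 2.86 to 43.7 ± 2.56 CPM (SD, n = 3 each), and reads can be split between the copies.

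Past IMP, transcripts of the GMP branch rose most at its last step. Gmps, which encodes the synthetase that makes GMP, had 95.3, 102 and 102 CPM in control and 241, 235 and 262 CPM in knockout-labelled libraries, a 2.46-fold rise (log2 fold change 1.30, SE 0.05, adjusted p = 6.6e-08). The step before it, IMP dehydrogenase, is encoded by 2 genes. Impdh2 had 260.3, 256 and 277 CPM and 316, 296 and 309 CPM and rose by a log2 fold change of 0.21 (SE 0.04). Impdh1 had 66.8, 70.7 and 69.7 CPM and 72.6, 71.7 and 72.9 CPM, a log2 fold change of 0.07 that did not pass (adjusted p = 0.17), although the groups did not overlap. Per kilobase of the principal transcript in GENCODE M21, Impdh2 was the more abundant of the 2 in both groups, at 142 ± 6.08 CPM per kilobase in control and 165 ± 5.40 in knockout-labelled libraries against 26.6 ± 0.76 and 27.9 ± 0.24 for Impdh1 (SD, n = 3 each). A processed pseudogene with 99.7% identity, Impdh2-ps, held 181 to 226 counts in 5 libraries and 478 in knockout replicate 3, against 9045 to 11563 for Impdh2. On the AMP branch, Adss, for the synthetase that starts from IMP, rose from 190.5 ± 10.8 to 227 ± 3.48 CPM (SD, n = 3 each; log2 fold change 0.25).

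Transcripts of the pyrimidine route rose at its first and later steps and not at its mitochondrial step. Cad encodes the protein that carries the first 3 activities of the route. It had 149, 149 and 144 CPM in control and 422, 414 and 417 CPM in knockout-labelled libraries, a 2.83-fold rise (SE 0.03 on the log2 scale, adjusted p = 3e-09). Umps, whose product makes UMP, had 50.3, 51.6 and 51.7 CPM and 119, 121 and 116 CPM (log2 fold change 1.21, SE 0.04). The 3 knockout-labelled libraries agreed closely for both genes and lay well above all 3 control libraries. Dhodh, for the dehydrogenase of the mitochondrial membrane between those steps, had 24.2, 24.0 and 27.4 CPM in control and 26.4, 24.0 and 27.9 CPM in knockout-labelled libraries, with overlapping groups (log2 fold change 0.05, SE 0.08, adjusted p = 0.61).

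The 2 CTP synthetase genes went opposite ways. Ctps had 118, 114 and 119 CPM in control and 207, 197 and 214 CPM in knockout-labelled libraries and rose 1.76-fold (log2 fold change 0.82, SE 0.04, adjusted p = 2.4e-07). Ctps2 had 40.6, 43.1 and 43.9 CPM and 25.0, 23.3 and 25.2 CPM and fell by 0.80 on the log2 scale (SE 0.06, adjusted p = 4e-06), the largest fall of the 36 genes. Neither gene's groups overlapped. Within a library, the ratio of Ctps to Ctps2 counts was 1.53, 1.41 and 1.44 on the log2 scale in control and 3.05, 3.08 and 3.08 in knockout-labelled libraries, a difference of 1.61 that does not depend on how libraries are scaled.

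**Figure D2:**
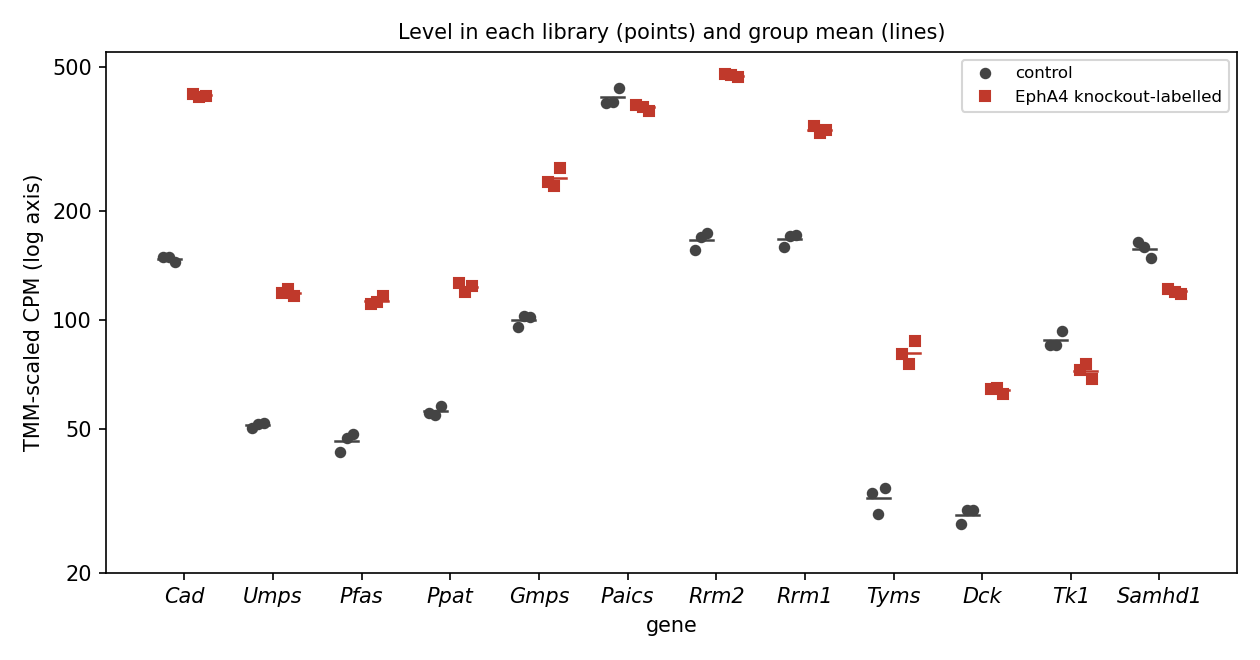
TMM-scaled CPM on a log axis for 12 of the genes in each library, with control libraries as grey circles, knockout-labelled libraries as red squares and lines at the group means. Cad, Umps, Pfas, Ppat, Gmps, Rrm2, Rrm1, Tyms and Dck lie higher in all 3 knockout-labelled libraries, Paics lies close in both groups, and Tk1 and Samhd1 lie lower.

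Ribonucleotide reductase transcripts rose for both of its S phase subunits. Rrm1, for the large catalytic subunit, had 159, 171 and 172 CPM in control and 343, 328 and 334 CPM in knockout-labelled libraries, a 2.00-fold rise (log2 fold change 1.00, SE 0.04). Rrm2, for the small subunit made in S phase, had 156, 169 and 174 CPM and 479, 474 and 469 CPM (log2 fold change 1.51, SE 0.04, adjusted p = 1.6e-08), the largest rise of the 36 genes. Rrm2b, for the small subunit that p53 induces and that serves resting cells, had 17.5, 20.4 and 22.1 CPM and 22.5, 20.3 and 23.7 CPM, with overlapping groups (log2 fold change 0.15, SE 0.10, adjusted p = 0.23). Per kilobase of transcript, Rrm2 stood at 75.8 ± 4.34 CPM in control and 216 ± 2.20 in knockout-labelled libraries, Rrm1 at 41.9 ± 1.74 and 83.8 ± 1.88, and Rrm2b at 4.39 ± 0.51 and 4.86 ± 0.37 (SD, n = 3 each). The log2 ratio of Rrm2 to Rrm2b counts was 3.15, 3.05 and 2.98 in control and 4.41, 4.54 and 4.31 in knockout-labelled libraries, a difference of 1.36. The Rrm2 pseudogenes Gm48445 and Gm48455 held 106 and 97 counts in knockout replicate 3 and at most 9 in any other library, against 17228 for Rrm2 there.

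Tyms and Dut, which serve new synthesis of thymidylate, rose at the transcript level, as did Dtymk, which acts after it. Tyms, which encodes the synthase that methylates dUMP, had 33.3, 29.0 and 34.2 CPM in control and 80.7, 75.3 and 87.3 CPM in knockout-labelled libraries, a 2.52-fold rise (log2 fold change 1.33, SE 0.08, adjusted p = 6.9e-07). Dut, whose product removes dUTP and yields dUMP, had 104, 103 and 108 CPM and 155, 146 and 147 CPM (log2 fold change 0.50, SE 0.04). Dtymk, for the kinase that acts on dTMP, had 37.9, 37.4 and 40.8 CPM and 69.1, 61.9 and 65.1 CPM (log2 fold change 0.76, SE 0.06). No control library reached the lowest knockout-labelled library in any of the 3 genes, where 76.1% of all tested genes had separate ranges. Tyms and Dtymk are the genes whose upstream stretches with CACGTG are printed above.

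The remaining dNTP genes differed among themselves. Nme1 encodes a nucleoside diphosphate kinase. It had 31.0, 32.1 and 36.3 CPM in control and 61.2, 64.9 and 55.2 CPM in knockout-labelled libraries (log2 fold change 0.87, SE 0.08). The Nme1 coding sequence matches the readthrough model Gm20390 at 99.7% over 347 bases, so the level of Nme1 may be incomplete too. Nme2, a close relative, had 1.00, 1.05 and 1.66 CPM and 2.27, 2.47 and 1.22 CPM and did not pass (log2 fold change 0.68, SE 0.37, adjusted p = 0.13), but was called higher without knockout replicate 3 (log2 fold change 0.99, adjusted p = 0.0075). These levels cannot be taken as those of the gene: the coding sequence of Nme2 is contained in the readthrough model Gm20390, which held 0 counts in every library. The processed pseudogene Gm7730, alike at 97.8%, held 124 to 164 counts in 5 libraries and 647 in knockout replicate 3, against 37 to 91 for Nme2. Samhd1 encodes the phosphohydrolase that breaks down dNTPs and is also a restriction factor for viruses. It had 164, 159 and 148 CPM in control and 122, 119.7 and 118 CPM in knockout-labelled libraries, and it fell by 0.39 on the log2 scale (SE 0.04, adjusted p = 4.1e-05), the only fall among the 9 dNTP genes.

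Of the 7 salvage genes of the list, 4 were higher (57.1%) and 3 lower (42.9%), with a median log2 fold change of 0.19. Over all tested genes, 32.7% were higher and 38.8% lower. Dck encodes the kinase for deoxycytidine and purine deoxynucleosides. It had 27.2, 29.9 and 29.8 CPM in control and 64.5, 64.9 and 62.5 CPM in knockout-labelled libraries. This was a 2.21-fold rise (log2 fold change 1.14, SE 0.06, adjusted p = 2.4e-07) and the only called change of at least 1.5-fold among the 7 salvage genes. Outside the 36, the salvage kinase genes Dguok, Uckl1 and Adk fell, with log2 fold changes of -1.36, -1.40 and -0.29. They are named here after their values were seen. The thymidine kinases both fell. Tk1, the cytosolic form that is abundant in S phase, had 85.3, 85.0 and 93.0 CPM and 72.9, 75.5 and 68.5 CPM (log2 fold change -0.28, SE 0.05, adjusted p = 0.0015). Tk2, the mitochondrial form, had 30.3, 32.2 and 32.6 CPM and 22.0, 21.5 and 22.6 CPM (log2 fold change -0.53, SE 0.06, adjusted p = 6.9e-05). Thus Tk1 fell in the same libraries in which Tyms, for the other source of thymidylate, rose.

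Base salvage for purines was split. Hprt, which recovers hypoxanthine and guanine, rose from 67.5 ± 6.51 to 91.8 ± 2.34 CPM (SD, n = 3 each; log2 fold change 0.44), and Aprt, which recovers adenine, fell from 324 ± 10.6 to 251 ± 2.55 CPM (log2 fold change -0.36). Aprt was the most abundant of the 36 transcripts per kilobase in both groups, at 381 ± 12.4 CPM per kilobase in control and 296 ± 3.00 in knockout-labelled libraries (SD, n = 3 each). The uridine-cytidine kinase genes Uck1 and Uck2 rose slightly, while Uckl1, outside the list, fell from 30.2 to 11.4 CPM as group means. Uck1 had 43.3, 39.5 and 41.7 CPM in control and 51.7, 54.2 and 59.8 CPM in knockout-labelled libraries (log2 fold change 0.41, SE 0.07). Uck2 had 238, 245 and 248 CPM and 269, 286 and 278 CPM (log2 fold change 0.19, SE 0.04).

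The 3 one-carbon genes of the list rose, where 32.7% of all tested genes were called higher. The larger fold changes were at the 2 cytosolic ones. Shmt1, for the cytosolic serine hydroxymethyltransferase, had 41.8, 40.5 and 40.1 CPM in control and 80.2, 78.1 and 74.7 CPM in knockout-labelled libraries (log2 fold change 0.93, SE 0.05). Mthfd1, for a cytosolic enzyme with 3 activities that makes the formyl donor of purine synthesis, had 102, 103 and 105 CPM and 227, 222 and 235 CPM, a 2.21-fold rise (log2 fold change 1.14, SE 0.03). Its mitochondrial relative Mthfd1l had 104, 109.7 and 106 CPM and 119.7, 118 and 132 CPM (log2 fold change 0.21, SE 0.05, adjusted p = 0.0041). The 2 genes had nearly equal counts in control, with a log2 ratio of -0.02, -0.10 and -0.01, and Mthfd1 had the more counts in all knockout-labelled libraries, with a log2 ratio of 0.92, 0.91 and 0.84. The change in the ratio was 0.93.

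Ratios of related enzymes within a library were computed for 8 pairs. Control and knockout-labelled ranges were separate for 7 of them, each with an exact two-sided permutation p of 0.10, the smallest that 3 against 3 can give, or 0.11 adjusted over the 8 pairs, so none can pass 0.05. Single genes had separate ranges in 76.1% of all those tested. The largest differences were those of Ctps to Ctps2, Rrm2 to Rrm2b and Mthfd1 to Mthfd1l given above. Prps1 to Prps2 rose by 0.31 on the log2 scale, Tk1 to Tk2 by 0.25 and Uck1 to Uck2 by 0.22, and Impdh1 to Impdh2 differed by -0.15. The ratio of Nme1 to Nme2, with overlapping groups and an exact permutation p of 0.60, differed by 0.21. Both of these genes carry the limit from Gm20390 given above.

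**Figure D3:**
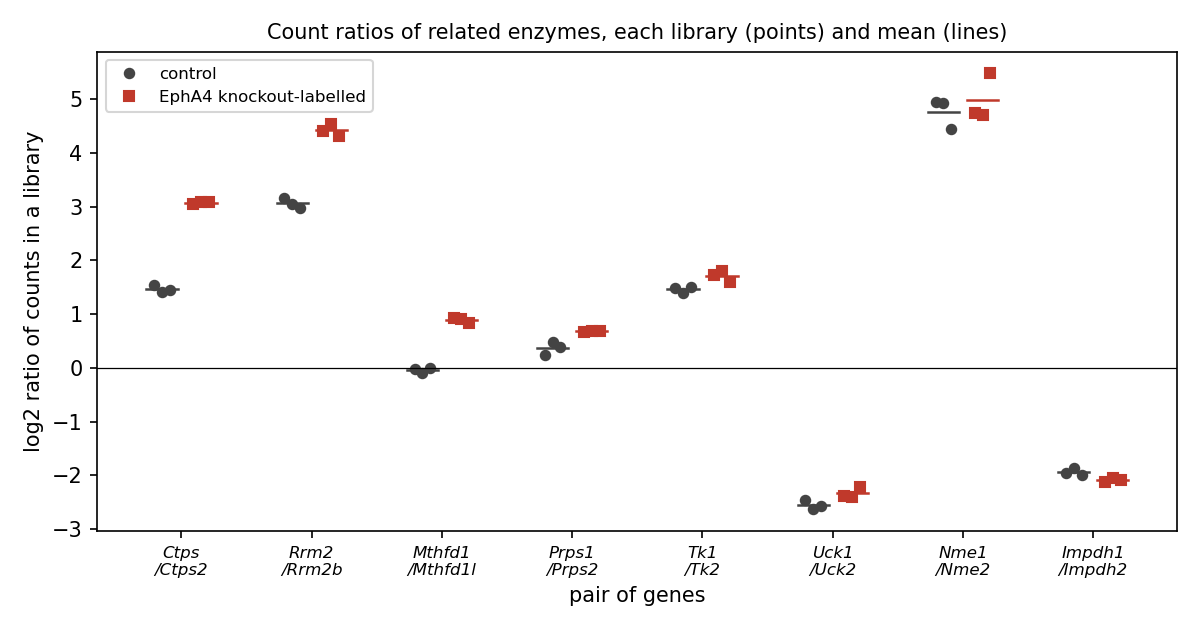
Log2 ratio of the counts of 2 related genes within each library (vertical axis) for 8 pairs, with control libraries as grey circles, knockout-labelled libraries as red squares and lines at the group means. The ratio of Ctps to Ctps2 moves from 1.46 to 3.07 and that of Rrm2 to Rrm2b from 3.06 to 4.42, and the Nme1 to Nme2 points of the groups overlap.

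Other genes of the same pathways were taken from 5 lists of 71 genes outside the 36. Of the 58 that were tested, 16 rose (27.6%), 29 fell (50%) and 13 did not pass, with a median log2 fold change of -0.30; 13 had too few counts to be tested. All tested genes also leaned lower, with 32.7% higher, 38.8% lower and a median of -0.04, and whether these lists differ from them was not tested. Breakdown and interconversion genes rose in 5 (21.7%) and fell in 12 (52.2%) of 23, and the share called in either direction was near the 71.5% of all tested genes. Xdh, for the oxidoreductase that ends purine breakdown in urate, fell from 40.1 ± 5.33 to 0.58 ± 0.30 CPM (SD, n = 3 each). Ampd3, an AMP deaminase gene, fell from 47.6 ± 1.48 to 6.90 ± 0.46 CPM, and Upp1, a uridine phosphorylase gene, fell by 1.67 on the log2 scale. Other nucleotide kinase genes rose in 3 and fell in 9 of 15. Cmpk2, a mitochondrial kinase gene that interferon induces, fell from 47.3 ± 5.29 to 0.33 ± 0.05 CPM, Nme4 fell by 1.91 on the log2 scale, and Nme6 rose (log2 fold change 1.59).

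Folate genes outside the list rose in 3 and fell in 6 of 12, or 25% and 50%, against 32.7% and 38.8% of all tested genes. The folate carrier genes Slc19a1, of the plasma membrane, and Slc25a32, of mitochondria, rose by log2 fold changes of 1.23 and 1.28. Those that fell included Mthfd2, Ggh, Mthfs, Aldh1l1 and Aldh1l2, named here after their values were seen. Mthfd2, for a mitochondrial folate enzyme, had 146 ± 4.92 CPM in control and 105 ± 3.76 CPM in knockout-labelled libraries (SD, n = 3 each). Aldh1l2 fell by 4.73 on the log2 scale from only 4.22 CPM. Of 4 tested transporter genes for nucleosides 3 rose: Slc29a2, Slc29a3 and Slc29a1, with log2 fold changes of 1.44, 1.00 and 0.51. The fourth, Slc29a4, named here after its values were seen, had 349 counts summed over the control libraries and 0 over the others. With 3 counts per group taken as the floor, it was at least 111-fold lower. Of 4 further supply genes, 2 were higher, 1 was lower (Adssl1) and 1 was not called (Prpsap2). Prpsap1, for a protein associated with PRPP synthetase, rose by a log2 fold change of 0.44.

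**Figure D4:**
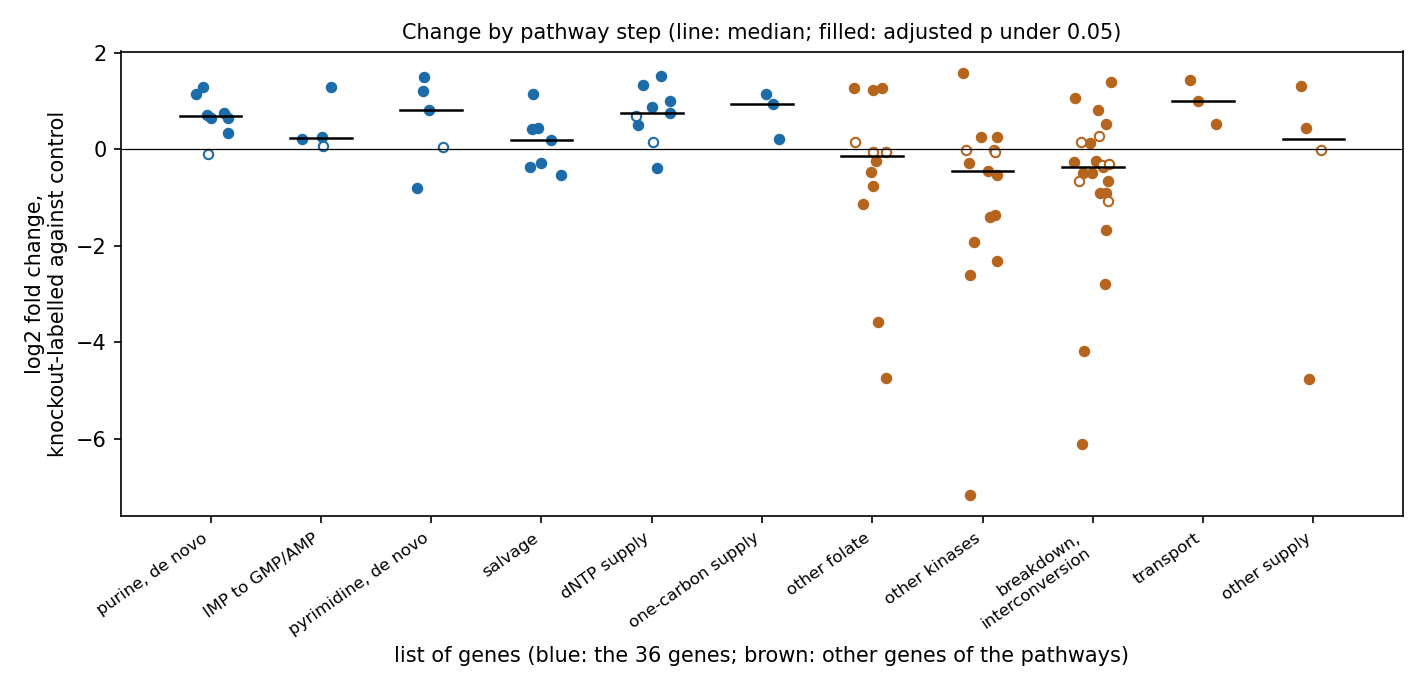
Log2 fold change in the knockout-labelled against the control libraries (vertical axis) for the 36 genes by step (blue) and for tested genes of 5 other lists of the pathways (brown), with lines at the medians; filled points passed an adjusted p of 0.05 and open points did not. All lists of the 36 genes have medians above 0, as do the transport and other supply lists. The other folate, kinase and breakdown lists have medians below 0. Slc29a4, with 0 counts in 1 group, is not drawn.

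Replication genes moved with the nucleotide genes. Of 26 genes for replication factors and S phase cyclins, 20 rose (76.9%), 1 fell (Pold1) and 5 did not pass, against 32.7% higher and 38.8% lower over all tested genes, with a median log2 fold change of 0.80 and a summed level of 2234 to 2284 CPM in control and 3731 to 3791 CPM in knockout-labelled libraries. Earlier results of these data had already shown S phase genes higher, so this is no independent support, and the part of cell cycle phase in the nucleotide genes was not tested. In bulk RNA, more cells in S phase and more transcript per cell cannot be told apart.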

How the data were processed

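Polyadenylated RNA of 6 MOC2 samples, 3 labelled control CRISPR and 3 labelled EphA4 knockout, was measured as raw counts per gene symbol, which the authors deposited as 1 table without normalization. The submitters' processing notes name STAR and GRCm39; their versions, and how and against which annotation and strand reads were counted, are not given in the sources used. Gene models, transcript lengths and overlaps came from GENCODE M21, on an earlier build, and copies of at least 95% identity over 100 bases were searched with BLAST 2.17.0.

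After filterByExpr and TMM scaling, all genes entered the two-sided quasi-likelihood test of edgeR 4.0.16 (R 4.3.3) with group alone in the model; p-values were Benjamini-Hochberg adjusted over all tested genes and called below 0.05. SE was derived from the log2 fold change and the F statistic. Ratios of pairs used counts plus 0.5 and an exact permutation test. Precision is limited by 3 libraries per group. Values in every library are given for genes called with an absolute log2 fold change of at least 0.5 and for the pairs, and from each other list up to 3 called genes whose mean log2 CPM reached 3. The members and lists were chosen with earlier results of these data known. Alternatives were other scaling factors, filters and thresholds, limma-voom (limma 3.58.1), DESeq2 1.42.0, a block for the replicate number, and leaving out the 20 most abundant genes or each replicate in turn. The scripts were tested on simulated counts with 200 changed genes among 15192 tested. In that single random draw, 11.5% of calls at the 0.05 threshold were false, and the share can differ between draws. Of 50 genes changed 1.25-fold 11 were recovered, and of 50 changed 4-fold 37 were. Far more genes were called in the real libraries, so these shares need not carry over. Values of some listed genes are not reported here.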

Additional observations from a re-analysis of the deposited data

How the results depend on the processing

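Of 17 alternatives, 16 kept all 31 called nucleotide genes in their direction; the exception, glmTreat against a fold of 1.5, called 17 higher and 1 lower, with 5473 genes called in all, because it asks for a larger change. The median log2 fold change of the 36 genes was 0.68 with relative log expression factors, 0.68 in DESeq2, 0.69 with the 20 highest genes left out and 0.58 with no filter on low counts, and it ran from 0.60 to 0.73 when 1 replicate was left out. Dhodh changed sign with no filter (log2 fold change -0.018), and neither sign passed. The log2 fold change of Paics ran from -0.081 to 0.0011 when 1 replicate was left out, above 0 only without control replicate 3. The difference in the Nme1 to Nme2 ratio ran from -0.039 without EphA4 knockout replicate 3, its only sign change, to 0.35. The cause was not tested. With the replicate block, 10339 genes were called, 26 of the 36 higher and 5 lower, with a median of 0.65. Same-numbered libraries had correlations of their deviations of -0.0029, 0.029 and 0.0083. Libraries of different numbers had -0.020 to 0.0089. No pairing by number was visible, but this was not tested. The block changed no call among the 36. Leaving out 1 replicate gave 10045 to 11338 called genes. Nme2 had the lowest depth of the 36 genes, at 37 to 91 counts per library.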
